A study of Drosophila melanogaster with 36 samples.

Results

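The comparison covers the heads of flies carrying the polyglutamine Atrophin transgene A75QN at 2 days against 0 days of ageing at 29 °C. It uses 6 of the 36 arrays of the series, chosen by their titles alone, 3 for each day. All flies developed at 18 °C, were collected within 48 hours of eclosion, and were either killed at once (day 0) or kept at 29 °C (day 2). The A75QN transgene, an Atrophin with an expanded polyglutamine (polyQ) stretch, is driven by GMR-Gal4, an eye driver, and is held off at 18 °C by a temperature-sensitive Gal80 repressor, so that the shift to 29 °C switches it on. The flies called Control carry GMR-Gal4 and Gal80 without an Atrophin transgene, Atro flies carry a wild-type Atrophin transgene, and A66QC flies carry another polyQ Atrophin. Days 0 and 2 of these 3 genotypes, 3 arrays each, served to show where the A75QN change differed. Each RNA sample came from 20 heads. The sources used here do not give the sex of the flies, the hour of collection, or whether the 3 replicates came from separate cultures, so that p-values reflect the spread between these arrays, which may be technical.

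Atrophin, encoded in the fly by Gug, is a nuclear corepressor that acts in development and downstream of the cadherin Fat, and polyQ expansion of human atrophin-1 causes the neurodegenerative disease dentatorubral-pallidoluysian atrophy. GMR-Gal4 acts mainly in the retina, whereas a whole head also holds brain, fat body, muscle, trachea, cuticle and blood cells, most of which lie outside the driven tissue. In the days after eclosion a young fly finishes and hardens its cuticle, deposits eye pigment and replaces juvenile tissue, and the cuticle genes used for this are then shut down. Within A75QN, the induced transgene, the first 2 days of adult life and the move to a warmer incubator coincide and cannot be told apart. In whole heads, a smaller number of cells of a type and less RNA per cell cannot be told apart either.

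Values are the deposited log2 signals, 1 for each probe set, and a difference of 1 on this scale is a doubling. Each gene is represented by its probe set of highest mean. A change was called when limma's moderated test gave a Benjamini-Hochberg adjusted p under 0.05 over all 18769 probe sets that were not controls. The 6 arrays had medians of 6.37 to 6.40 and SDs of 1.5 to 1.53, and across probe sets, replicates of a day had a Pearson r between 0.9970 and 0.9984. A gene whose mean lies near 6.40 has a signal like that of the middle probe set of an array, so that the size of a fall to such a level is uncertain.

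Technical measures separated the compared days, the poly-A spike-ins by the most. The 24 probe sets for poly-A spike-ins, bacterial transcripts added to the RNA before labelling, averaged 10.4 ± 0.14 (SD, n = 3) at day 0 and 13.23 ± 0.061 at day 2, with a range of 10.17 to 10.83 over the 27 arrays of the other genotypes. The hybridization controls, added after labelling, averaged 9.815 ± 0.084 and 9.702 ± 0.045, a difference of -0.113. The signal of the 3' end over the 5' end went from 1.815 ± 0.047 to 1.587 ± 0.035 for eIF4a, from 1.723 ± 0.093 to 1.556 ± 0.094 for actin, and from 1.574 ± 0.073 to 1.765 ± 0.087 for GAPDH. The days did not overlap for eIF4a or, in the opposite direction, for GAPDH, but did for actin. Over the 27 arrays of the other genotypes eIF4a ranged from 1.424 to 2.027 and GAPDH from 1.29 to 2.196. Within A75QN the amount of spike-in was higher at day 2, and also at day 14 (13.17 to 13.4). In these 6 arrays any effect of the spike-in on the other probe sets and the effect of the day cannot be told apart. The same holds for whatever lay behind the eIF4a and GAPDH differences. The other genotypes lacked the spike-in step, so that comparing their changes with that of A75QN cannot separate spike-in from genotype.

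**Figure D1:**
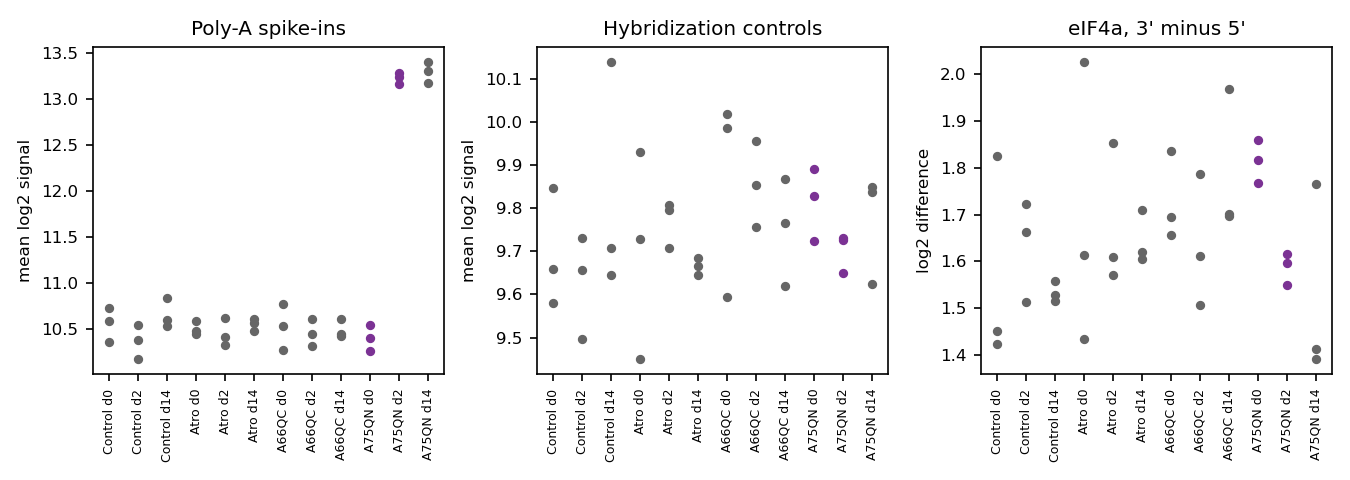
Mean log2 signal of the poly-A spike-in and hybridization control probe sets, and the log2 difference between the 3' and 5' probe sets of eIF4a, for each array (1 point each) in the 12 groups of 4 genotypes and 3 days (d0, d2, d14). The purple points are the A75QN arrays of days 0 and 2; the spike-in signal is 10.26 to 10.54 at day 0 and 13.16 to 13.28 at day 2.

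The endogenous Atrophin gene was read first. Gug gave 8.71, 8.62 and 8.89 at day 0 and 8.95, 9.08 and 9.02 at day 2. The day 2 arrays were all higher, yet the difference of 0.27 (SE 0.11) did not pass the test (adjusted p = 0.0785). It was called higher with quantile normalization, with cyclic loess, with the brighter probe sets alone, with array weights, with only the compared arrays, without day 0 replicate 3, and without the 6 arrays of outlying spread. The sources used here do not say whether this probe set also reads the transgene.

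Among 11982 genes, 2030 were higher and 1054 lower in A75QN heads at day 2, which is 16.9% and 8.8% of all genes and 25.7% together. Among the 18769 probe sets, 2407 were higher and 1299 lower, 12.8% and 6.92% (19.7% together). Most differences were small: 331 rises and 352 falls of called probe sets were over 0.5 on the log2 scale, 34 rises and 95 falls over 1, and 3 rises and 23 falls over 2. The largest changes were thus mostly falls although rises were more numerous. The share of rises among called probe sets, 64.9% as deposited, was 56.3% after quantile normalization (2823 higher, 2188 lower) and 48.3% after cyclic loess (2321 higher, 2485 lower), so that the balance of small rises and falls depended on the scaling. Of the 3084 called genes, 2974 were called in the same direction after quantile normalization and 2797 after cyclic loess, and 0 had the opposite sign.

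**Figure D2:**
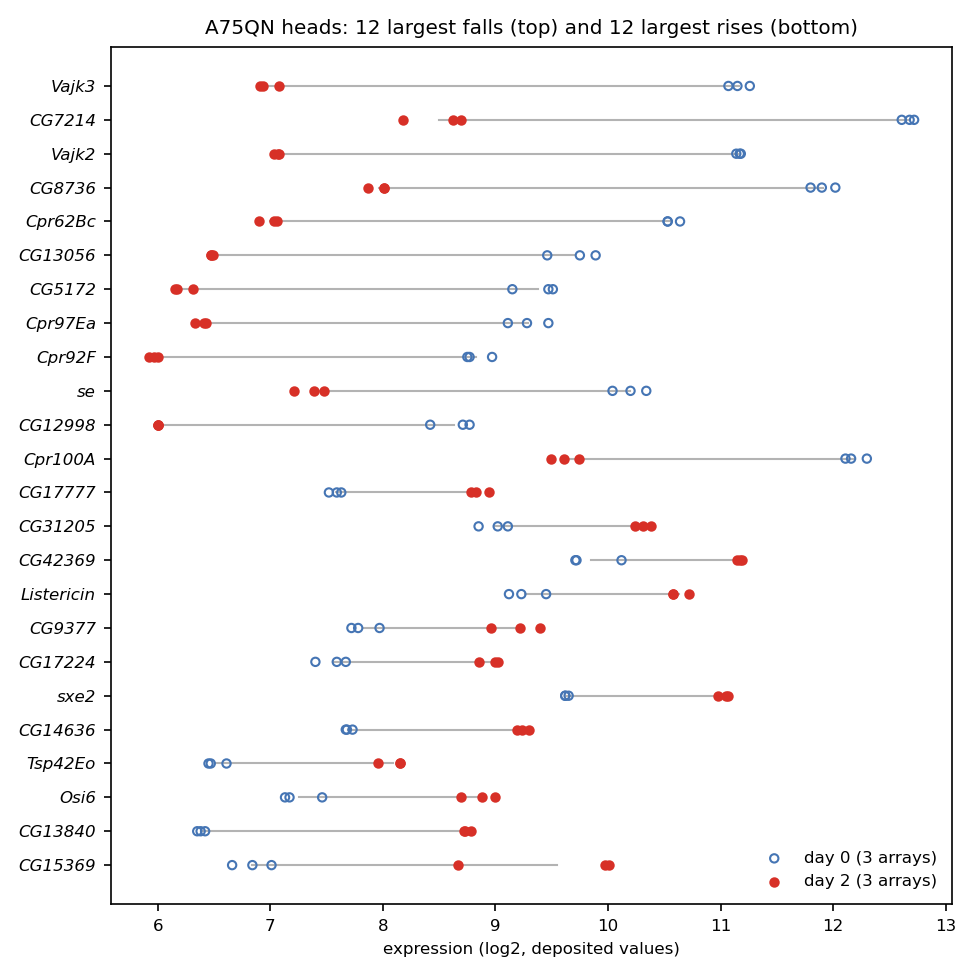
Deposited log2 expression of the 12 genes with the largest falls (top) and the 12 with the largest rises (bottom) in A75QN heads. Open circles are the 3 arrays of day 0, filled circles the 3 arrays of day 2, and grey lines join the means. The genes were taken only from those whose days do not overlap, and Vajk3 goes from 11.07 to 11.26 down to 6.91 to 7.08.

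Cuticle protein genes were 6 of the 12 largest falls in A75QN. The 12 largest falls and 12 largest rises were taken only from called genes whose days did not overlap, so that their lack of overlap is no added support. The share of all genes without overlap is not given here. Of 110 cuticle protein genes, 29 fell and 2 rose, against 8.8% and 16.9% of all genes, and the median change of the list was -0.06 against 0.01 for all genes. Vajk3 (CG16884), listed with the cuticle proteins, read 11.26, 11.15 and 11.07 at day 0 and 6.93, 6.91 and 7.08 at day 2. It fell by 4.19 (SE 0.21, adjusted p = 8.94e-16), or 18.2-fold. The day 0 arrays lay together above 11 and the day 2 arrays near 7, with no overlap. Vajk2 (CG16885) read 11.17, 11.14 and 11.18 and then 7.03, 7.07 and 7.08, a change of -4.11 (SE 0.19, adjusted p = 9.6e-17); another probe set for Vajk2 fell by 2.94.

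The Cpr genes encode cuticle proteins with a chitin-binding domain, and several went from bright to near the middle of the array. Cpr62Bc (CG1919) read 10.64, 10.53 and 10.53 at day 0 and 7.03, 6.90 and 7.06 at day 2. All 3 day 2 arrays were far below all 3 day 0 arrays, and the gene fell by 3.57 (SE 0.24, adjusted p = 9.85e-13), 11.9-fold. Cpr97Ea fell from a mean of 9.28 to 6.39 (-2.89, SE 0.22), Cpr92F from 8.83 to 5.96 (-2.87, SE 0.14) and Cpr49Ag from 8.74 to 6.24 (-2.50, SE 0.11). These 3 genes ended at or below the array medians, so that their falls may be understated. Cpr100A, still bright at day 2, fell from 12.30, 12.11 and 12.16 to 9.74, 9.49 and 9.61 (-2.58, SE 0.17, adjusted p = 5.55e-13). The rises in the list were small, 0.59 for Cpr12A and 0.20 for Cpr49Ab.

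Genes known only by number fell with them. CG7214 was the brightest of the large falls, with 12.72, 12.61 and 12.68 at day 0 and 8.62, 8.18 and 8.69 at day 2 (-4.18, SE 0.14, adjusted p = 2.42e-20). CG8736 read 12.02, 11.90 and 11.80 and then 8.01, 7.87 and 8.01 (-3.94, SE 0.20, adjusted p = 8.88e-16). In both genes the days were separated by more than 3 log2 units. The changes of CG13056, CG5172 and CG12998 were -3.22, -3.17 and -2.63, and CG12998 read 6.00 on each of the 3 day 2 arrays.

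Of 33 genes listed for chitin and cuticle assembly, 16 fell and 3 rose, with a median of -0.26. The chitin synthase gene kkv fell by 2.16, from a mean of 8.53 to 6.37, and the chitin deacetylase genes verm and serp fell by 2.02 and 1.95. The chitinase gene Cht7 read 8.62, 8.50 and 8.50 at day 0 and 6.62, 6.54 and 6.61 at day 2 (-1.95, SE 0.16, adjusted p = 1.14e-10). The chitin-binding protein genes obst-B and Gasp fell by 1.84 and 1.64. Day 0 and day 2 arrays of Cht7 did not overlap. Cht6 fell by 1.28 at its brightest probe set, whereas its other probe sets gave -0.02 and -0.25. Of the tanning enzymes, ple (tyrosine hydroxylase) and Ddc (dopa decarboxylase) fell by 0.20 and 0.30, and the rises of the list were Alas and the prophenoloxidases PPO1 and PPO2. All 5 measured tracheal markers fell, and their summed level, as log2, went from 12.26 to 12.55 at day 0 to 10.76 to 10.82 at day 2. Of these, Gasp, verm, serp and obst-A are also in the chitin list, and the part of trachea in the falls was not tested.

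**Figure D3:**
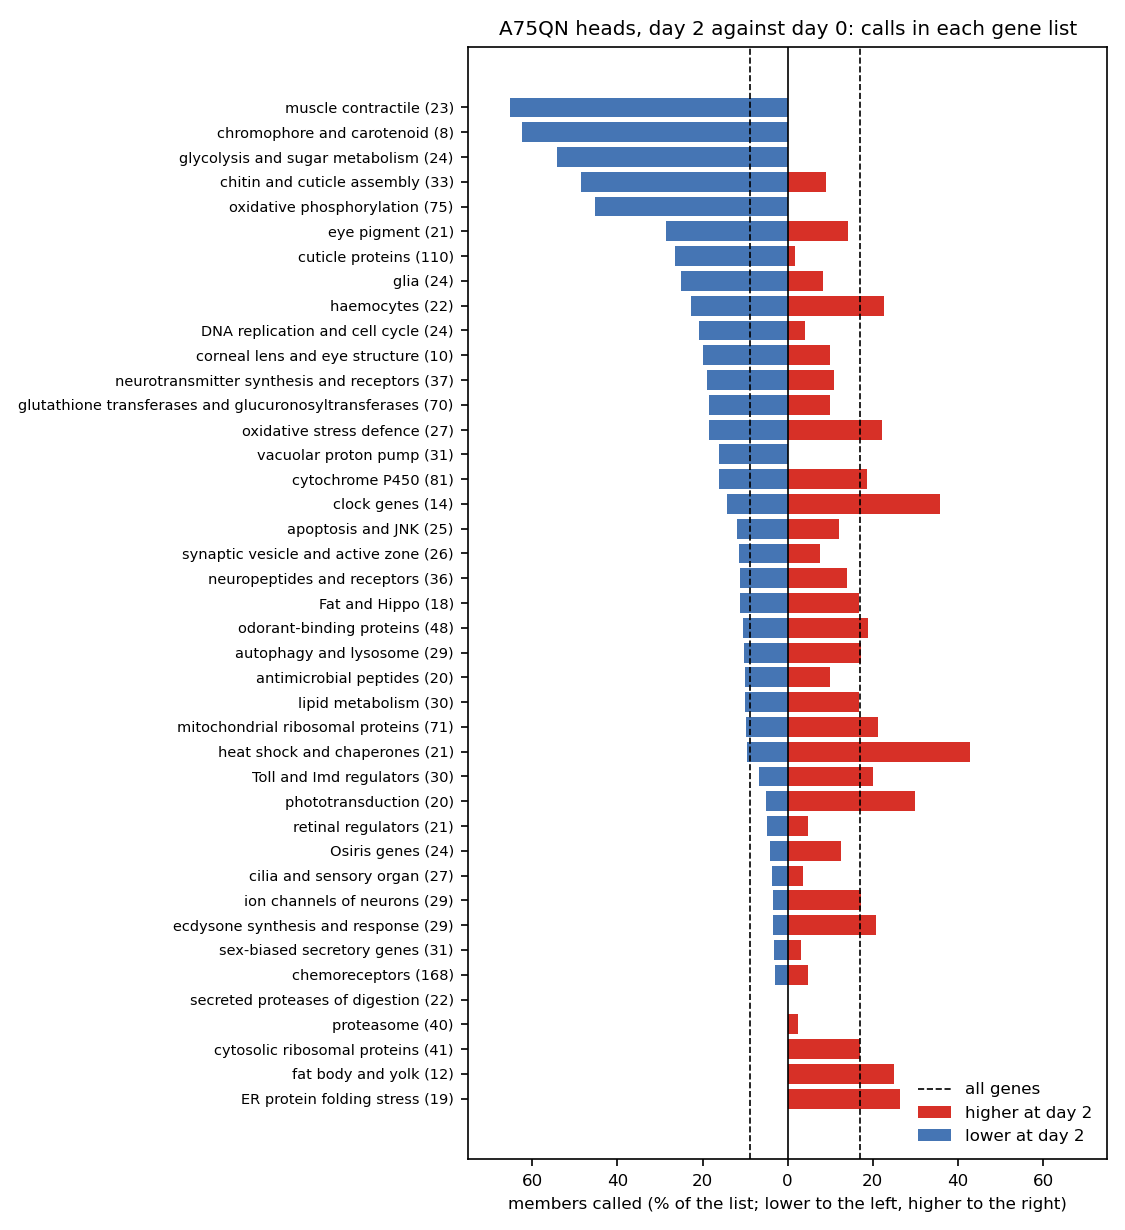
For each of 41 gene lists (number of measured members in brackets), the percentage of members called higher (red, right) and lower (blue, left) at day 2 in A75QN heads. Dashed lines mark all 11982 genes (16.9% higher, 8.8% lower); muscle has the longest blue bar, with 15 of 23 genes lower, and heat shock proteins and chaperones the longest red bar, with 9 of 21 higher.

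The largest rises were smaller than the largest falls, and most were in genes known only by number. CG15369 read 6.84, 6.66 and 7.01 at day 0 and 9.97, 10.01 and 8.67 at day 2, a rise of 2.71 (SE 0.38, adjusted p = 1.79e-06). Day 2 replicate 3 lay more than 1 log2 unit below the other day 2 arrays but above every day 0 array. CG13840 was tighter, with 6.35, 6.42 and 6.38 and then 8.72, 8.78 and 8.73 (2.36, SE 0.073, adjusted p = 6.23e-21). Osi6 (CG1151), of the Osiris family of insect transmembrane proteins, read 7.46, 7.17 and 7.13 and then 9.00, 8.88 and 8.69, a rise of 1.61 (SE 0.14, adjusted p = 1.48e-10). No day 2 array of CG13840 or Osi6 was as low as a day 0 array. Of the 24 Osiris genes 3 rose and 1, Osi9, fell by 0.31, 16.7% called against 25.7% of all genes. Tsp42Eo, a tetraspanin, rose by 1.57 from a mean of 6.51, and CG14636, CG17224, CG9377, CG42369, CG31205 and CG17777 rose by 1.27 to 1.55. Several of these rises were smaller than in Control by limma's test of the difference. CG17777 rose by 2.81 in Control (difference -1.54, adjusted p = 4.31e-07) and Tsp42Eo by 2.90 (-1.32, adjusted p = 2.57e-06). Osi6 rose by 2.94 there (-1.33, adjusted p = 6e-05), CG13840 by 2.96 (-0.60, adjusted p = 0.000727) and CG9377 by 2.21 (-0.84, adjusted p = 0.0437). The differences of CG15369, CG14636, CG17224, CG42369 and CG31205 from Control did not pass it.

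Of 23 muscle contractile genes, 15 fell and 0 rose (limma; also 0 rose by an unadjusted p under 0.05), with a median of -0.54. Tm2, a tropomyosin, read 11.53, 11.34 and 11.41 at day 0 and 10.19, 10.17 and 10.18 at day 2 (-1.24, SE 0.10, adjusted p = 7.24e-11). The myosin light chain genes Mlc1 and Mlc2 fell from 12.52 to 11.46 and from 12.09 to 10.98 in the mean. The day 2 arrays of Tm2, Mlc1 and Mlc2 all lay below the day 0 arrays. Troponin T (up) fell by 1.05, paramyosin (Prm) by 0.81, alpha-actinin (Actn) by 0.79 and the calcium pump SERCA by 0.73. Of 11 measured muscle markers, all of them in this list, 8 fell and 0 rose, and their summed level, as log2, went from 14.75 to 14.84 at day 0 to 14.00 to 14.11 at day 2.

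Of 75 oxidative phosphorylation genes, which serve mitochondrial respiration, 34 fell and 0 rose (limma; also 0 by an unadjusted p under 0.05), with a median of -0.20. The largest fall was in COX7AL2, which encodes a subunit of cytochrome c oxidase and read 11.80, 11.66 and 11.64 and then 10.77, 10.63 and 10.65 (-1.01, SE 0.11, adjusted p = 3.63e-08). The days of COX7AL2 did not overlap. Subunits of ATP synthase followed, with ATPsynbeta at -0.51 and ATPsynC at -0.45, and of complex I, with ND-B18 at -0.48. The count of falls was 19 without day 0 replicate 1, 20 without day 2 replicate 3 and 54 with cyclic loess. Of 31 genes of the vacuolar proton pump, 5 fell and 0 rose, the latter also by an unadjusted p under 0.05 in limma, with Vha14-1 at -0.39. That is 16.1% of the pump genes called, against 25.7% of all genes.

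Of 24 glycolysis and sugar genes, 13 fell and 0 rose (limma; 1 rose by an unadjusted p under 0.05), with a median of -0.24. Glycogen phosphorylase (Glyp) read 12.03, 11.78 and 11.86 and then 11.08, 11.12 and 11.10 (-0.79, SE 0.096, adjusted p = 1.57e-07). The branching enzyme AGBE fell from a mean of 10.26 to 9.54 (-0.72, SE 0.077). Neither gene's days overlapped. Pgk, Gapdh1 and Hex-A, of glycolysis, fell by 0.44, 0.41 and 0.37, and Pepck2, of gluconeogenesis, by 0.85. Muscle markers fell in the same arrays, and their part in the falls of respiration and sugar genes was not tested.

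The eye is the tissue of the driver, and its genes were read here in whole-head RNA. Of 21 eye pigment genes, 6 fell, 3 rose and 12 did not pass the test, with a median of 0.04. In Control, without an Atrophin transgene, 7 fell and 4 rose. Against Control, 2 of the 21 changed more downward in A75QN and 1 more upward (1.43% and 1.1% of all genes). The gene se (sepia), for an enzyme of red drosopterin pigments, read 10.34, 10.20 and 10.04 at day 0 and 7.39, 7.48 and 7.21 at day 2 (-2.83, SE 0.15, adjusted p = 2.76e-15), 7.13-fold. The days lay more than 2 log2 units apart. In Control se fell by 1.98, less than in A75QN by limma's test (difference -0.85, adjusted p = 0.0288). Pteridine synthesis genes upstream of it fell too, pr (purple) from a mean of 10.88 to 9.88 (-0.99, SE 0.10) and Pu (punch, GTP cyclohydrolase) by 0.83. The ommochrome precursor transporter st (scarlet) fell from 7.25 to 6.16, below the array medians (-1.09, SE 0.061). The transporter bw (brown) rose by 0.69, and the trafficking genes g and p by 0.26 and 0.21.

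Of 8 genes of the visual chromophore and its carotenoid precursors, 5 fell and 0 rose (limma; 1 rose by an unadjusted p under 0.05), with a median of -0.37. In Control 5 fell too, with a median of -0.38. By limma's test 0 of the 8 differed between A75QN and Control (2 by an unadjusted p under 0.05). The retinol dehydrogenase gene rdhB read 11.42, 11.32 and 11.19 and then 10.32, 10.24 and 10.21 (-1.05, SE 0.09, adjusted p = 1.57e-10). The retinol-binding protein gene pinta fell from a mean of 7.95 to 7.28 (-0.67, SE 0.071) and the carotenoid scavenger receptor santa-maria from 10.41 to 9.94 (-0.47, SE 0.078). No day 2 array of these 3 genes reached a day 0 array. Of 20 phototransduction genes, 6 rose and 1, laza, fell by 0.26, with a median of 0.13. In Control 2 rose and 4 fell, and 0 of the 20 differed from Control by limma's test (4 by an unadjusted p under 0.05). The light-activated channel trpl read 11.52, 11.51 and 11.60 and then 12.23, 12.27 and 12.26 (0.71, SE 0.067, adjusted p = 1.34e-09). The day 2 arrays of trpl were all higher. The others that rose were stops (0.43), Rh7 (0.35), rdgC (0.33), rdgB (0.29) and inaE (0.29); another probe set for Rh7 gave -0.06. The 6 measured photoreceptor markers were all above the array medians on both days, and their summed level, as log2, was 15.04 to 15.14 at day 0 and 15.19 to 15.24 at day 2.

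Of 21 retinal regulators, gl (glass, 0.27, SE 0.084) and sv (shaven, -0.19, SE 0.048) were called, and gl lost its call when day 0 replicate 1, day 2 replicate 2 or day 2 replicate 3 was left out. The largest eye change besides pigment was in Cpr72Ec (CG4784), a cuticle protein gene also listed with the corneal lens. It read 11.61, 11.37 and 11.42 at day 0 and 8.96, 9.11 and 9.02 at day 2, a change of -2.44 (SE 0.12, adjusted p = 4.2e-16). Its days were separated by more than 2 log2 units. The lens protein gene retinin fell by 0.34, from 13.31 to 12.97 in the mean. The polarity gene sdt (stardust) rose by 0.43 at its brightest probe set, whereas its other 5 probe sets gave -0.07 to 0.07.

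Of 14 clock genes, 5 rose and 2 fell, with a median of 0.07. The gene tim (timeless), whose protein represses the clock together with that of per (period), read 8.31, 8.13 and 8.34 at day 0 and 9.29, 9.18 and 9.10 at day 2 (0.93, SE 0.083, adjusted p = 4.26e-10). Its days did not overlap, but its other probe set gave -0.08. The clock output repressor vri (vrille) fell from 8.59, 8.66 and 8.68 to 8.35, 8.04 and 8.04 (-0.50, SE 0.11, adjusted p = 0.000864), and per fell by 0.26. The activator gene Clk rose by 0.34 and Bdbt, a partner of the kinase doubletime, by 0.37. After cyclic loess 4 rose and 5 fell.

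Of 20 antimicrobial peptide genes, 2 rose and 2 fell, with a median of -0.13, against 16.9% of all genes higher and 8.8% lower, so that neither count stands out from the background. Listericin, an antibacterial peptide, read 9.12, 9.23 and 9.45 and then 10.58, 10.58 and 10.72 (1.36, SE 0.11, adjusted p = 7.64e-11). Defensin (Def) read 8.78, 8.55 and 8.82 and then 7.80, 7.67 and 8.14 (-0.84, SE 0.16, adjusted p = 0.000246). In both genes the days were separate, in opposite directions. Drsl5 rose by 0.46 and BomS2 fell by 0.66. Metchnikowin (Mtk) varied between replicates, with 11.20, 11.25 and 9.67 at day 0 and 10.55, 9.69 and 8.91 at day 2, and diptericin B (DptB) with 9.90, 10.33 and 8.02 and then 9.55, 8.55 and 8.30. The days of both overlapped and neither was called (adjusted p = 0.416 and 0.55). Of 30 Toll and Imd regulators, 6 rose and 2 fell, 26.7% called against 25.7% of all genes. The Toll ligand gene spz gave 0.49, the upstream protease gene grass 0.37, the adaptor tub 0.33 and the inhibitor cact -0.30. After cyclic loess 6 rose and 7 fell.

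Of 22 haemocyte genes, 5 rose and 5 fell, 45.5% called against 25.7% of all genes. PPO1, a prophenoloxidase of crystal cells, read 7.13, 7.25 and 6.81 and then 8.12, 8.36 and 8.26 (1.19, SE 0.12, adjusted p = 9.75e-09). Hemolectin (Hml), a clotting protein of blood cells, rose from a mean of 8.26 to 9.10 (0.84, SE 0.077). NimC4, a receptor for dying cells, read 8.64, 8.40 and 8.01 and then 6.74, 6.64 and 6.86 (-1.60, SE 0.23, adjusted p = 3.33e-06). The rises and the fall all separated the days. The collagen IV genes Col4a1 and vkg fell by 0.57 and 0.49. Of the 7 haemocyte markers, all in the list, 1 rose and 1 fell, and their summed level, as log2, was 11.07 to 11.19 at day 0 and 11.30 to 11.34 at day 2.

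Of 21 heat shock and chaperone genes, 9 rose, 2 fell and 10 did not pass the test, with a median of 0.26. The largest rises were in the small heat shock gene l(2)efl (0.65), the Hsp90 partners Fkbp59 and Cdc37 (0.53 and 0.50), Hsp68 (0.49) and the Hsp40 gene DnaJ-1 (0.44). Fkbp59 read 9.00, 8.91 and 8.89 and then 9.44, 9.48 and 9.47 (SE 0.063, adjusted p = 1.14e-07), and its days did not overlap. The Hsp70 relative of the ER, Hsc70-3, rose by 0.29 and the Hsp90 relative of the ER, Gp93, by 0.26. Both also stand in the list of ER folding genes, of which 5 of 19 rose and 0 fell (limma; 1 fell by an unadjusted p under 0.05), with the disulfide isomerase genes CaBP1 and ERp60 at 0.40 and 0.31. The share of ER folding genes called was 26.3%, against 25.7% of all genes.

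Of 41 cytosolic ribosomal protein genes, 7 rose and 0 fell (limma; also 0 fell by an unadjusted p under 0.05), a share of rises close to that of all genes, with a median of 0.14. The largest rise was RpL24-like at 0.63, which read 9.72, 9.65 and 9.68 and then 10.32, 10.30 and 10.31 (SE 0.098, adjusted p = 1.26e-05). Its days were separate. The number of rises was 23 with quantile normalization and 15 with cyclic loess, where 1 gene fell. Of 71 mitochondrial ribosomal protein genes, 15 rose and 7 fell, but after quantile normalization 15 rose and 19 fell and after cyclic loess 13 and 22. Of 40 proteasome genes 1 was called, Prosbeta2 (0.35, SE 0.093, adjusted p = 0.00523), while 4 fell after quantile normalization and 6 after cyclic loess. Of 29 autophagy and lysosome genes, 5 rose and 3 fell, 27.6% called against 25.7% of all genes. The lipid kinase gene Pi3K59F gave 0.31, Atg12 0.26 and Atg4b 0.25. After quantile normalization 7 rose and 8 fell, after cyclic loess 4 and 11, and Atg12 was not called after cyclic loess. Atg4b lost its call without day 0 replicate 2 and without day 2 replicate 1.

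Neuronal genes moved in both directions by less than 1 log2 unit. Of 26 synaptic genes, 2 rose and 3 fell, 19.2% called against 25.7% of all genes. The vesicle protein gene nSyb rose from 9.01, 8.98 and 9.17 to 9.51, 9.60 and 9.45 (0.47, SE 0.098, adjusted p = 0.000599). Its day 2 arrays were all higher. Sap47 fell by 0.72, dynamin (shi) by 0.39 and Rop by 0.32; other probe sets gave -0.20 for Sap47, and -0.49 and 0.15 for shi. Of 37 transmitter genes, 4 rose and 7 fell, 29.7% called against 25.7% of all genes. The fallers were 5-HT2A (-0.48), Gad1 (-0.34), DAT (-0.33), ChAT (-0.32), Ddc (-0.30), nAChRbeta2 (-0.22) and ple (-0.20), which serve serotonin, GABA, dopamine and acetylcholine signalling. The nicotinic receptor subunit gene nAChRbeta3 rose by 0.54 and nAChRalpha5 by 0.32. Of 29 ion channel genes, 5 rose and 1 fell, 20.7% called against 25.7% of all genes. The leak potassium channel Ork1 gave 0.50, the calcium channel Ca-alpha1D 0.40, and para and Shal 0.35. The 10 measured neuron markers had a summed level, as log2, of 13.54 to 13.62 at day 0 and 13.51 to 13.60 at day 2.

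Of 36 neuropeptide and receptor genes, 5 rose and 4 fell, 25% called against 25.7% of all genes. SIFa read 8.51, 8.46 and 8.38 and then 7.74, 7.77 and 7.80 (-0.69, SE 0.089, adjusted p = 5.3e-07). The days of SIFa were separate. The insulin-like peptide gene Ilp5 fell by 0.64, and Orcokinin, AstC, NPF and Mip rose by 0.62, 0.51, 0.47 and 0.43. Of 24 glial genes, 6 fell and 2 rose, 33.3% called against 25.7% of all genes, with a median of -0.14. The GABA transporter gene of glia, Gat, fell from 9.52, 9.62 and 9.19 to 8.56, 8.64 and 8.58 (-0.85, SE 0.14, adjusted p = 1.83e-05), the astrocyte gene alrm fell by 0.48, and the adhesion gene bdl by 0.84. The blood-brain barrier receptor gene moody rose from 9.91, 9.77 and 9.85 to 10.70, 10.60 and 10.58 (0.79, SE 0.093, adjusted p = 1.09e-07). No arrays of the 2 days overlapped in Gat or moody. The falls in glia numbered 15 with cyclic loess and 3 without day 2 replicate 1.

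Fat body genes were called about as often as all genes. Of 12 fat body and yolk genes, 3 rose and 0 fell (limma; 1 fell by an unadjusted p under 0.05), 25% called against 25.7% of all genes. The lipase-like gene sxe2 read 9.62, 9.62 and 9.65 and then 11.07, 11.05 and 10.98 (1.41, SE 0.087, adjusted p = 1.06e-13), Obp99b rose from a mean of 11.42 to 12.59, and fit, a sex-biased head fat body gene, from 11.02 to 11.72. Their days did not overlap. Of 30 lipid genes, 5 rose and 3 fell, 26.7% called against 25.7% of all genes, and 5 rose and 8 fell after cyclic loess. Perilipin 1 (Lsd-1), which coats lipid droplets and controls their breakdown, read 10.29, 10.35 and 10.04 and then 10.97, 10.92 and 10.84 (0.68, SE 0.095, adjusted p = 1.86e-06). Jabba, a lipid droplet protein that anchors histones in the embryo, read 8.77, 8.68 and 8.65 and then 9.59, 9.59 and 9.66 (0.91, SE 0.075, adjusted p = 6.85e-11); its other probe set gave 0.58. Both droplet genes were higher on every day 2 array. Of the 8 fat body markers, all in the fat body list, 1 rose and 0 fell, and their summed level, as log2, was 15.26 to 15.30 at day 0 and 15.29 to 15.49 at day 2.

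Detoxification and odorant-binding families had members called in both directions, as did all genes (16.9% higher, 8.8% lower). The shares called were 34.6% of cytochrome P450 genes, 28.6% of transferase genes, 29.2% of odorant-binding protein genes and 7.74% of chemoreceptor genes. Of oxidative stress genes 40.7% were called, and of all genes 25.7%. Of 81 cytochrome P450 genes, 15 rose and 13 fell (12 and 23 after cyclic loess), with Cyp4d2 (0.73) and Cyp9c1 (0.65) the largest rises and Cyp6a8 (-0.87) and Cyp6d5 (-0.83) the largest falls. Of 70 glutathione and glucuronosyl transferase genes, 7 rose and 13 fell. GstE14, a transferase needed for ecdysteroid synthesis, read 8.87, 8.75 and 8.65 and then 7.43, 7.44 and 7.37 (-1.34, SE 0.10, adjusted p = 9.92e-12), whereas GstD9 read 8.87, 9.03 and 8.74 and then 10.04, 10.07 and 10.01 (1.16, SE 0.092, adjusted p = 2.86e-11). These transferases moved apart with no overlap of days. Of 48 odorant-binding protein genes, 9 rose and 5 fell, with Obp99b at 1.17, Obp56a at 0.90, Obp83g at -1.59 and Obp99a at -1.39. Of 168 chemoreceptor genes, 8 rose and 5 fell, with Ir76a, an olfactory receptor subunit gene, at 0.94. Of 27 oxidative stress genes 6 rose and 5 fell (4 and 9 after cyclic loess), with Sod3 at -0.76; another probe set for Sod3 gave -0.24.

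Of 29 ecdysone genes, 6 rose and 1 fell, 24.1% called against 25.7% of all genes. The gene sad, for a hydroxylase of ecdysone synthesis, read 6.38, 6.34 and 6.27 and then 7.51, 7.45 and 7.69 (1.22, SE 0.071, adjusted p = 2.11e-14), and ImpL2, an insulin-binding antagonist, rose by 0.67. The days of sad were separate, from a day 0 level at the array medians. Of 18 Fat and Hippo genes, 3 rose and 2 fell (2 and 3 after cyclic loess), 27.8% called, so that neither count stands out from the background. Mer (Merlin) rose by 0.33, the growth coactivator yki by 0.25 and the glypican dlp by 0.21, and the Fat modifier fj fell by 0.35. Of 25 apoptosis and JNK genes 3 rose and 3 fell (2 and 8 after cyclic loess), 24% called. The gene bsk (JNK) gave -0.43, the death activator skl -0.39, the caspase Dcp-1 -0.23 and the JNK kinase hep 0.33. Other probe sets for bsk gave -0.47 and -0.05. Of 24 replication genes, 1 rose and 5 fell, 25% called against 25.7% of all genes, with PCNA at -0.47. Of 27 cilia genes, 31 sex-biased secretory genes and 22 digestive proteases, 2, 2 and 0 were called by limma, and 2 digestive proteases had an unadjusted p under 0.05.

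Where A75QN differed from the other genotypes was tested as a difference between changes, on arrays that the genotypes do not share. Only A75QN had the spike-in step between day 0 and day 2, so that any effect of it is part of these differences. Against Control, 132 genes changed more upward and 171 more downward, 1.1% and 1.43% of all genes (2.53% together); among probe sets 184 and 199, 0.98% and 1.06% (2.04% together). Against Atro the numbers were 171 and 69 genes (1.43% and 0.576%), and against A66QC 36 and 97 (0.3% and 0.81%). Of all probe sets, 1.45% differed from Atro and 0.778% from A66QC. The balance of directions depended on the setting. The share of upward differences from Control among called probe sets, 48% as deposited, was 37.2% with cyclic loess, 65.7% with array weights and 23.7% without Control day 2 replicate 2. Against Atro it was 71.8% as deposited, 48.2% with quantile normalization and 38.5% with cyclic loess. Against A66QC it was 26.7% as deposited, 44.3% and 37.2% with those scalings, and 79.6% without the 6 arrays of outlying spread. In Control itself 1715 genes rose and 1693 fell, 14.3% and 14.1%. Of the 2030 genes that rose in A75QN, 1188 also rose in Control, which is 58.5% of the A75QN rises and 69.3% of the Control rises. Of the 1054 that fell, 762 also fell in Control, 72.3% of the A75QN falls and 45% of the Control falls. Genes called in opposite directions numbered 8 and 11. In either direction, most genes called in A75QN were thus also called in heads without an Atrophin transgene.

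**Figure D4:**
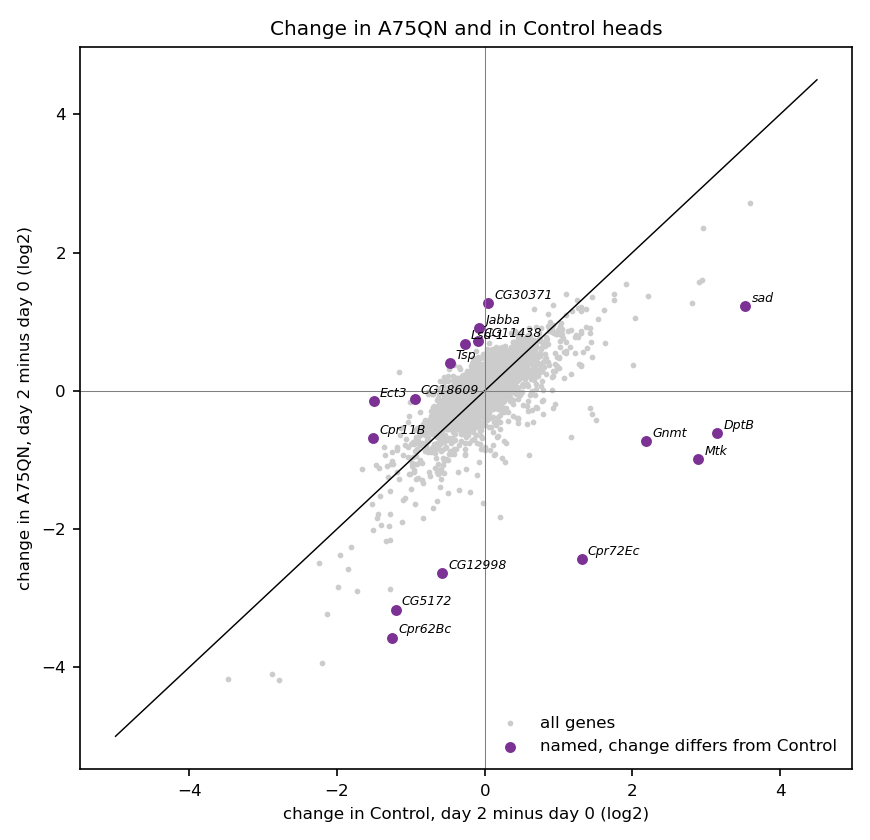
Change from day 0 to day 2 in Control (horizontal) and in A75QN (vertical), both log2, for 11982 genes (grey). Purple points are the 16 named genes with the largest differences between the changes, 8 of each sign, and the line marks equal change; DptB lies at 3.15 in Control and -0.62 in A75QN.

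Lists moved alike in A75QN and Control in several cases and not in others, by their counts. Muscle genes had 15 falls in A75QN and 17 in Control, with medians of -0.54 and -0.77, and 2 members, Mlp60A and Mlp84B, fell less in A75QN. Oxidative phosphorylation had 34 and 29 falls, and 0 of its 75 genes differed (limma; 2 by an unadjusted p under 0.05). Transmitter genes had 7 falls in A75QN and 18 in Control, ion channels 1 and 11, and glia 6 and 13, all on the deposited scale. In A75QN the falls of these lists numbered 9, 1 and 12 with quantile normalization and 9, 2 and 15 with cyclic loess. The Control counts after these scalings are not given here. The rescaled A75QN counts thus cannot be set against 18, 11 and 13, and whether the gap in counts holds after scaling was not tested. In these lists 2, 3 and 1 members differed between the genotypes by the test, nAChRalpha7, Ca-alpha1D, Shab, unc79 and Tret1-1 upward and nAChRbeta3 downward. Among all genes the share that differed was 2.53%, with 1.1% upward and 1.43% downward. Shab, a potassium channel gene, changed by 0.29 in A75QN and -0.12 in Control (difference 0.41, adjusted p = 0.00209), and another probe set for Shab gave 0.03 in A75QN.

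Of the 110 cuticle protein genes, 11 changed more downward and 2 more upward than in Control, against 1.43% and 1.1% of all genes. In Cpr62Bc, CG12998 and CG5172 the means of the 4 genotypes lay farther apart at day 0 than at day 2; the day 0 levels themselves were not tested. Cpr62Bc had a mean of 10.57 ± 0.067 (SD, n = 3) at day 0 in A75QN, 9.13 ± 0.54 in Control, 9.70 ± 0.87 in Atro and 8.98 ± 0.36 in A66QC. At day 2 the means were 7.00, 7.87, 7.60 and 7.29. A75QN was thus the highest at day 0 and the lowest at day 2, and its change differed from Control by -2.31 (SE 0.34, adjusted p = 9.18e-05). CG12998 stood at 8.63 in A75QN against 6.64, 7.45 and 6.70 at day 0 in Control, Atro and A66QC, and at 6.00 to 6.06 in all 4 genotypes at day 2, a difference from Control of -2.05 (SE 0.28, adjusted p = 1.8e-05). CG5172 followed with 9.38 against 7.30, 9.20 and 7.46 and a difference from Control of -1.96 (SE 0.41, adjusted p = 0.00719). Its difference from Atro, -0.27, was not called (adjusted p = 0.808). The change of Vajk3 differed by -2.18 from Atro, -2.22 from A66QC and -1.39 from Control, all called. For CG8736 the differences were -1.87, -2.11 and -1.73 in the same order, all called. For CG7214 they were -2.20 and -1.36 from Atro and A66QC, both called, and -0.69 from Control, not called (adjusted p = 0.056). Flies of day 0 were up to 48 hours old, and the sources used here do not give the ages within that window, so that age at collection and genotype cannot be told apart in these day 0 levels.

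**Figure D5:**
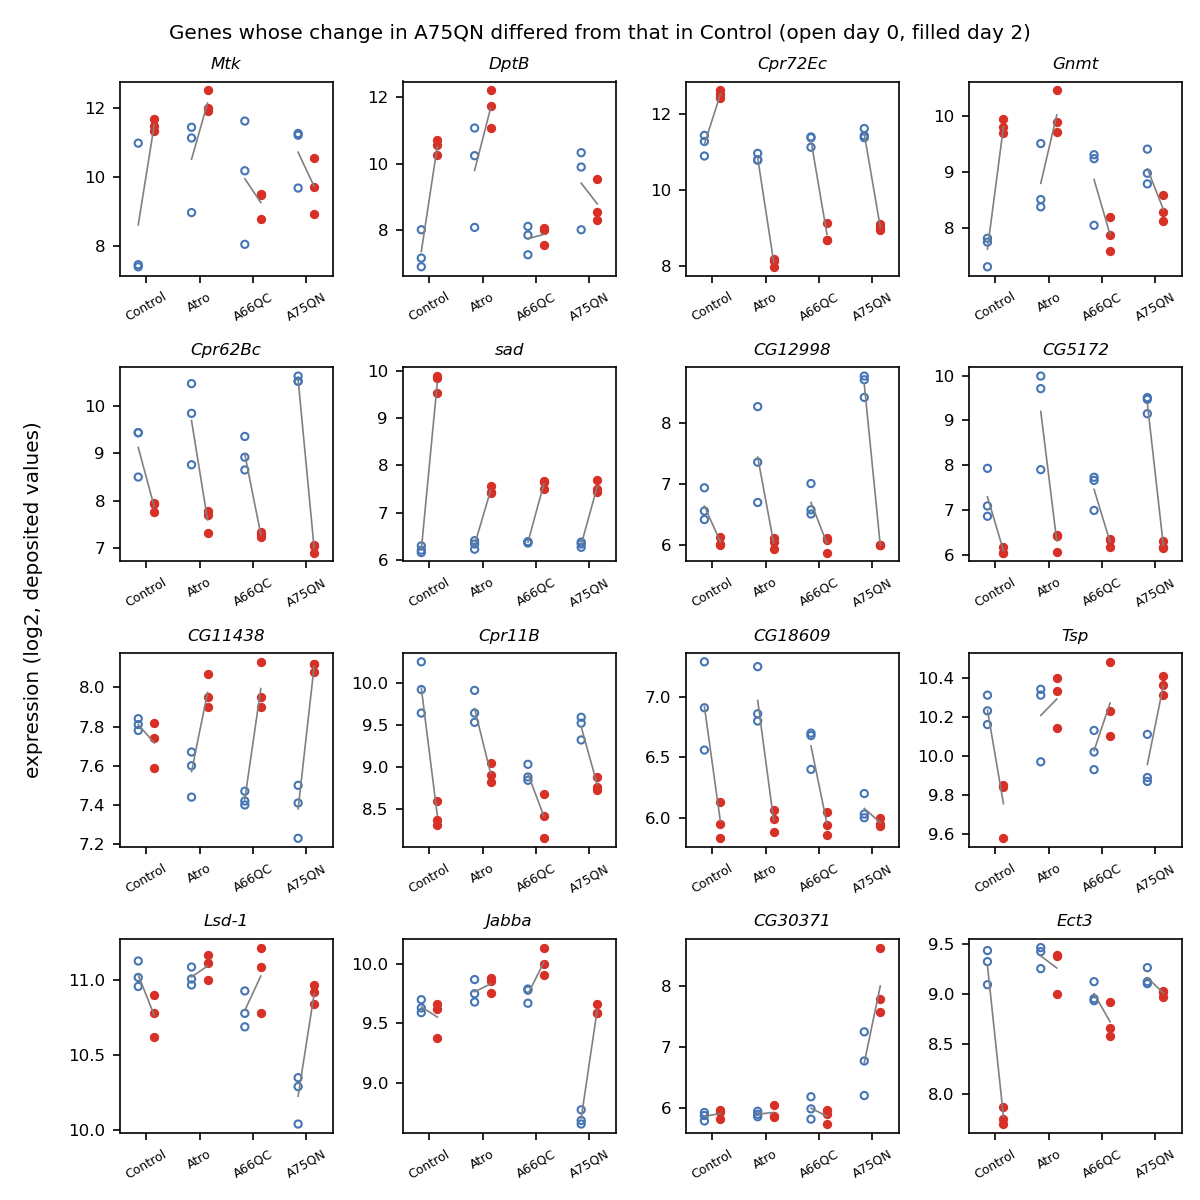
Deposited log2 expression in the 4 genotypes at day 0 (open, blue) and day 2 (filled, red), 3 arrays each, with lines between means, for the 16 genes whose change in A75QN differed most from that in Control. For Cpr62Bc, CG12998, Jabba and Lsd-1 the A75QN arrays stand apart from the Control arrays at day 0, whereas for Cpr72Ec, sad and Ect3 the Control arrays stand apart from the A75QN arrays at day 2.

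For 3 other genes Control stood apart from the lines with an Atrophin transgene. Cpr72Ec rose in Control from a mean of 11.20 to 12.51, whereas it fell in A75QN from 11.47 to 9.03, in Atro from 10.84 to 8.11 and in A66QC from 11.29 to 8.84. The difference from Control was -3.75 (SE 0.17, adjusted p = 1.69e-16), and those from Atro and A66QC, 0.29 and 0.02, did not pass the test. The gene sad rose by 3.53 in Control and by 1.22 in A75QN, 1.15 in Atro and 1.24 in A66QC, a difference from Control of -2.31 (SE 0.10, adjusted p = 1.39e-16). Ect3, a beta-galactosidase gene, fell by 1.51 in Control and gave -0.15 in A75QN (difference 1.35, SE 0.15, adjusted p = 5.86e-07). The change of Ect3 was -0.12 in Atro and -0.28 in A66QC, and neither differed from A75QN by the test.

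DptB, Mtk and Gnmt rose in Control and had lower means at day 2 than at day 0 in A75QN. DptB read 7.17, 8.02 and 6.91 and then 10.72, 10.27 and 10.56 in Control, a rise of 3.15, against -0.62 in A75QN, a difference of -3.76 (SE 0.77, adjusted p = 0.00556). Its level at day 0 was already 9.42 ± 1.2 in A75QN, with 1 array at 8.02. Mtk differed by -3.88 (SE 0.99, adjusted p = 0.0336), and lost the call in 11 of the other settings. BomBc3, BomT2 and BomS2, of the bomanin peptide family, differed by -1.79, -0.93 and -0.84. Of the 20 antimicrobial peptide genes, 5 changed more downward than in Control, 0 more downward than in Atro and 1, Listericin, more downward than in A66QC. The shares of all genes were 1.43%, 0.576% and 0.81%. Upward, 0, 1 and 0 of the 20 differed. Gnmt, the glycine N-methyltransferase gene, read 9.40, 8.97 and 8.78 and then 8.11, 8.58 and 8.28 in A75QN and rose by 2.18 in Control, a difference of -2.91 (SE 0.37, adjusted p = 6.46e-06). Its own fall of 0.73 in A75QN (adjusted p = 0.0437) was not called in 5 of the other settings.

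Jabba and Lsd-1, named for their difference from Control, had lower means in A75QN than in the other genotypes at day 0, with a smaller gap at day 2. Of the 30 genes of the lipid list, which holds Lsd-1 but not Jabba, 1 (Lsd-1) differed from Control by the test, against 2.53% of all genes. Jabba had a mean of 8.70 ± 0.06 at day 0 in A75QN against 9.64, 9.77 and 9.75 in Control, Atro and A66QC, and 9.61 at day 2 against 9.56, 9.83 and 10.02. Its change differed from that of Control by 0.99 (SE 0.11, adjusted p = 5.51e-07), from Atro by 0.85 and from A66QC by 0.64, all called. Lsd-1 stood at 10.23 ± 0.16 at day 0 against 11.04, 11.02 and 10.80 and differed from Control by 0.95 (SE 0.13, adjusted p = 3.77e-05). By limma's test its difference from Atro, 0.60, was called (adjusted p = 0.0155), and that from A66QC, 0.45, was not (adjusted p = 0.162). Obp8a, an odorant-binding protein gene, had means of 7.56 at day 0 and 8.16 at day 2 in A75QN and 7.67 and 7.69 in Control (difference 0.58, adjusted p = 0.000226). SIFa started high, at 8.45 against 7.87 in Control, and ended at 7.77 against 7.83 (difference -0.65, adjusted p = 0.00283).

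CG30371 exceeded 6.40, the highest array median, on 5 of the 6 A75QN arrays and on none of the 18 arrays of days 0 and 2 of the other genotypes. It read 6.20, 6.77 and 7.25 at day 0 and 7.80, 8.64 and 7.58 at day 2, against 5.73 to 6.18 on those other arrays. The A75QN days did not overlap, and the change of 1.27 (SE 0.18, adjusted p = 2.28e-06) differed from Control by 1.22, from Atro by 1.24 and from A66QC by 1.39. With only the arrays of the compared groups these differences were not called. Of the 14 clock genes, 3 differed from Atro and 3 from A66QC, all upward, and 2 differed from Control, both downward. The shares of all genes in these directions were 1.43%, 0.3% and 1.43%. The gene tim rose by 0.93 in A75QN and 1.37 in Control but gave -0.26 in Atro and -0.52 in A66QC, and vri gave -0.50, -0.19, -1.32 and -1.75 in the same order. For tim the differences were 1.19 from Atro (adjusted p = 2.99e-07), 1.45 from A66QC (adjusted p = 4.09e-09) and -0.44 from Control (adjusted p = 0.0437). For vri they were 1.25 from A66QC (adjusted p = 1.3e-05) and 0.82 from Atro (adjusted p = 0.00327), and -0.31 from Control was not called (adjusted p = 0.353). At day 0 tim stood at 8.26 in A75QN and 8.08 in Control against 9.60 and 9.42 in Atro and A66QC, and the sources used here do not give the hour of collection.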

How the data were processed

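Total RNA from fly heads was labelled with biotin and hybridised to one-colour Affymetrix arrays, per the labels' protocols. The authors deposited log2 values for each probe set of every array; the submitters' processing notes name R 2.11.0, and the sources used here do not give the background correction, summarization or normalization. Of 18952 probe sets 183 were controls. By the platform annotation 13647 of the others carried 1 symbol, 402 several and 4720 none, and 13544 symbols were matched to a reference table by gene ID. Neither ft nor w was analysed here, and list genes without a probe set were not used here.

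All 36 arrays entered a limma 3.58.1 model (R 4.3.3) with a mean for each of 12 groups (24 residual and 6.487 prior degrees of freedom), checked on simulated data. All adjusted p-values of genes are from this limma model. The members and the 41 gene lists (1449 genes) were chosen with earlier results of these data known, and 5 genes that did not belong to a list's family or were caught through a shared older name were removed after the data were seen. The 152 named genes are the 12 largest rises and falls whose days did not overlap, up to 3 genes of smallest adjusted p per list, the 8 largest differences of each sign from Control, the 3 largest from Atro and A66QC, and Gug. Others are list members named after their values were seen. Alternatives were quantile and cyclic loess normalization, brighter probe sets, another prior, array weights, a replicate block, only the compared arrays, and leaving out each replicate. Among the arrays 0 pairs were identical. The number of arrays limits precision.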

Additional observations from a re-analysis of the deposited data

Results flagged for a closer look

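One result is a signal outside the gene measurements: the poly-A spike-in probe sets were higher by 2.83 at day 2 than at day 0 in A75QN, whereas all 27 arrays of the other genotypes lay between 10.17 and 10.83. Its part in the gene changes was not tested. Within A75QN it cannot be told apart from the day, and in the differences between changes it cannot be told apart from the genotype.

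The other results are changes from day 0 to day 2 that differed between genotypes by limma's test of the difference. Below that of Control were the changes of Mtk (-3.88), DptB (-3.76), Cpr72Ec (-3.75), Gnmt (-2.91), Cpr62Bc (-2.31), sad (-2.31), CG12998 (-2.05) and CG5172 (-1.96). Above it were those of Ect3 (1.35), CG30371 (1.22), Jabba (0.99), Lsd-1 (0.95), Tsp (0.87), CG18609 (0.84), Cpr11B (0.83) and CG11438 (0.82). The difference of Cpr11B lost its call without Control day 0 replicate 2 and without Control day 2 replicate 2. CG18609 was at 6.07 at day 0 in A75QN, below the array medians, and at 6.92 in Control. Tsp, the thrombospondin gene, changed by 0.40 in A75QN and -0.48 in Control. Against Atro the differences were -2.20 for CG7214, -2.18 for Vajk3, -1.95 for Gnmt, 1.24 for CG30371, 1.22 for CG16898 and 1.19 for tim. Against A66QC they were -2.22 for Vajk3, -2.11 for CG8736, -2.0 for CG5172, 1.45 for tim, 1.39 for CG30371 and 1.25 for vri.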

How the results depend on the processing

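Of 2115 values of named genes in A75QN under other settings, 2066 kept their direction and side of the threshold, 33 gained a call, 16 lost it and 0 reversed; of 556 differences between genotypes, 540 kept both and 16 lost the call. The number of called probe sets in A75QN, 3706, was 5870 with array weights and 2865 to 3242 when a replicate was left out. The difference from Control, 383 probe sets, gave 1301 with quantile normalization, 1189 with cyclic loess, 1689 with array weights, 606 with only the compared arrays, and 200 to 392 without a replicate (234 and 200 without A75QN day 0 replicates 1 and 2, 211 and 215 without day 2 replicates 2 and 3, 251 without Control day 0 replicate 2). The difference from Atro, 273, gave 579, 639 and 6034 with quantile, loess and array weights and 126 to 432 without a replicate, namely 136 without A75QN day 0 replicate 2, 126 and 141 without A75QN day 2 replicates 2 and 3, 149 and 432 without Atro day 0 replicates 1 and 2, and 152 and 163 without Atro day 2 replicates 2 and 3; the array weights stopped short of full convergence. That from A66QC, 146, gave 506 and 479 with quantile and loess, 872 without the 6 arrays of outlying spread (a setting chosen after seeing the data) and 105 to 166 without a replicate. The causes were not tested. The replicate numbers did not pair the A75QN samples (correlations of deviations between the days 0.0036, -0.246 and -0.0815; in Atro 0.274, 0.474 and 0.148), and the replicate block gave 3887, 486, 311 and 155 probe sets. Lists moved by over 1.5 times in 251 of 1230 counts. Signal near the array medians limits the size of large falls.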
